A study of Mus musculus with 7 samples.

Results

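Immediate early genes are transcribed within minutes of a stimulus, from factors already present in the cell, and most encode transcription factors or inhibitors that shut the same signal down. Heat shock genes encode chaperones that hold or refold damaged proteins, and their inducible members are switched on by heat shock factor 1. Both kinds are known to be induced while tissue is minced and digested with enzymes at body temperature, and both also differ between resting cell types, so their levels in dissociated cells carry the marks of either. Medullary thymic epithelial cells, which show tissue antigens to developing T cells, are freed from the thymus by such a digestion.

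The genes described here were 36 immediate early and heat shock genes, chosen by name. Of these, 35 (27 immediate early and 8 heat shock) were among the 20839 genes listed in the 7 libraries, and Cebpd was not analysed here. They comprised 6 subunits of the dimeric transcription factor AP-1 (Fos, Fosb, Jun, Junb, Jund and Atf3), 3 factors of the EGR and NR4A families, 10 feedback and growth arrest genes, 5 listed members of the KLF, C/EBP and Myc factors, 3 other early genes (Rhob, Rrad and Tnfrsf12a) and 8 heat shock genes. The filter on low values, a mean of at least 0.1 unique molecular identifiers (UMIs) per 10000, was passed by 34 of the 35, and by 8856 of all genes.

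The data were single-cell RNA profiles of sorted thymic epithelial cells of mice, in a study of how the medullary ones renew after a transient block of RANKL, the signal that Aire-expressing cells need. Each of the 7 libraries was 1 pool of 3 thymi. 1 library came from C57BL/6 mice of 6 weeks carrying Aire-CreERT2 and R26-CAG-Stopfl-zsGreen, in which Aire-driven Cre labels cells once tamoxifen is given, here 2 mg every other day over 10 days. The others came from C57BL/6 mice given 3 treatments of 100 ug antibody within a week. An isotype control antibody was given to the mice of 2 libraries, taken at week 2 (age 4 weeks) and week 10 (age 12 weeks), and anti-RANKL to those of 4 libraries, taken at weeks 2, 4, 6 and 10 (ages 4, 6, 8 and 12 weeks). Every library was made by the same enzymatic digestion at 37 °C and no undigested thymus was measured, so digestion and the state of the cells in the tissue cannot be told apart within a library. Age, treatment, pool of mice and preparation differ together between libraries, and these cannot be told apart either.

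Levels are given as the mean over cells of UMIs per 10000 UMIs of the cell, for cells with no UMI of Ptprc (the leukocyte antigen CD45) and at least 2000 UMIs, 8048 of 8453 cells. Cells were divided by 3 thresholds on the deposited natural log values, and a cell had to pass exactly 1 of them. Ccl21a above 4 (Ccl21a is a chemokine of medullary cells that lack Aire) took 3181 cells, between 154 and 850 per library. Aire above 1.5 (Aire is the factor that releases tissue antigen genes) took 1659 cells, between 20 and 533 per library, the 20 being those of the week 4 anti-RANKL library. Trpm5 above 0 (Trpm5 is the cation channel of tuft cells) took 342 cells, between 21 and 92 per library. Cells that passed none of the thresholds numbered 2639, and 227 passed several. The median depth per library ran from 4574.5 to 14148.5 UMIs in Ccl21a-high cells, from 8367.5 to 21850.5 in Aire-high cells and from 4337 to 12556 in Trpm5-positive cells, and the week 6 anti-RANKL library had the lowest in each gate. The 50 cell barcodes found in more than 1 library were at most 7 for any of the 21 pairs.

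Markers of tuft and of Aire-expressing cells followed the gates. Without Aire itself, the latter summed to a median of 78.7 per 10000 in Aire-high cells against 34.8 in Ccl21a-high and 19.1 in Trpm5-positive cells. Without Trpm5, the tuft markers summed to a median of 70.6 per 10000 in Trpm5-positive cells against 1.06 in Ccl21a-high and 1.41 in Aire-high cells. The 9 T cell markers, of which Ptprc was at 0 through the filter, summed to at most 0.312, 1.18 and 0.595 in Ccl21a-high, Aire-high and Trpm5-positive cells. The 69 cells chosen for having both Ptprc and Cd3 UMIs also held epithelial markers, which summed to 15.9 to 34.1 per 10000 against 25.9 to 44.4 in Aire-high cells, and doublets were not called, so they are no sample of non-epithelial cells. Markers of cortical epithelium summed to 29.9 to 41.9 in Ccl21a-high cells and to 1.66 to 9.82 in Aire-high cells, and the myeloid list to 0.123 to 0.831 and 3.37 to 10.1. Their part in the results below was not tested.

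The promoters of the members were searched for short sequence elements, each as a fixed pattern of letters. Variant forms and positions further upstream were not searched, so a member without a match may still carry such an element. RefSeq promoters (GRCm38.p6, the 250 bases before the start) were at hand for 28 of the 35 members and for 27025 genes. A heat shock element, read on both strands as GAANNTTC or TTCNNGAA, was found in 5 of 6 heat shock promoters (Hspa1a, Hspa1b, Hspb1, Hsph1 and Dnaja1, the sixth being Dnajb1), in 1 of 22 early gene promoters (Jun) and in 13.0% of all promoters. The cyclic AMP response element TGACGTCA was found in Dusp1, Btg2 and Ppp1r15a, and in 1.62% of all promoters. No member promoter held the AP-1 site TGANTCA (6.83% of all promoters) or the EGR consensus site (0.537%). The CArG box was found in Zfp36 (1.38% of all), the TATA box TATAAA in Fos and Gadd45b (13.0%), the NF-kB site in 6 members (9.35%) and the SP1 site GGGCGG in 25 (33.0%). The following stretches end at the base before the start and are shown, in capitals, for the elements they hold, the heat shock elements of Hspa1a, Hspa1b, Hspb1 and Jun and the cyclic AMP elements of Btg2, Ppp1r15a and Dusp1.
Hspa1a, chr17:34972157-34972276, minus strand: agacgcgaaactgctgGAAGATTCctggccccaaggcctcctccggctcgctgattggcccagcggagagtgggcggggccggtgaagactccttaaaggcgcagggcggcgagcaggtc
Hspa1b, chr17:34959239-34959358, minus strand: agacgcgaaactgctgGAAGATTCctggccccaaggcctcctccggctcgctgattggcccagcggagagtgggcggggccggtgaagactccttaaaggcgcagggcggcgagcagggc
Hspb1, chr5:135887787-135887918, plus strand: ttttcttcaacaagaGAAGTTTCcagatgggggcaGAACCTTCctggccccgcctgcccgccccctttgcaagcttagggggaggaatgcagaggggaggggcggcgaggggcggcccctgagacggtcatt
Jun, chr4:95052223-95052365, minus strand: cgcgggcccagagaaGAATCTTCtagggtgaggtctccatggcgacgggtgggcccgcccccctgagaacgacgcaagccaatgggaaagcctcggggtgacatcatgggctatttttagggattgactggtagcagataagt
Btg2, chr1:134079156-134079336, minus strand: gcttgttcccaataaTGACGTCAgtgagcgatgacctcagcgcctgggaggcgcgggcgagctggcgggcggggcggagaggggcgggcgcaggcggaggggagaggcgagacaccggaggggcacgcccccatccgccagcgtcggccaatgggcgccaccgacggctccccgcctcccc
Ppp1r15a, chr7:45526269-45526388, minus strand: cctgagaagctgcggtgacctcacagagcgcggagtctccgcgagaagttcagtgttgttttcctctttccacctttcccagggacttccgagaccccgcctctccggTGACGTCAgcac
Dusp1, chr17:26508473-26508630, minus strand: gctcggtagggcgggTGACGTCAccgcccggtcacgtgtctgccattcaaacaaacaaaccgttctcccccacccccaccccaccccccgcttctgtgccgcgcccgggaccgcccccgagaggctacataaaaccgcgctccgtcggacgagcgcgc
Hspa1a and Hspa1b, neighbours on chromosome 17 that encode near-identical inducible HSP70 proteins, had the same base at 247 of 250 promoter positions. Reads of such near-identical genes can be lost or assigned to the other copy, so the split between these genes is uncertain. A match describes the letters and was not tested as a site of binding.

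Most members were lower in Aire-high than in Ccl21a-high cells. Of the 34 tested, 27 were lower and 3 higher (limma over all genes, adjusted p under 0.05), where 26.8% of all 8856 genes were called lower and 19.9% higher. The median difference of the members was -0.98 on the log2(UMIs per 10000 + 0.1) scale, against -0.11 over all genes tested. The level was lower in the Aire-high cells of 7 of 7 libraries for 25 members, and for 10 members the highest Aire-high library lay below the lowest Ccl21a-high library, which held for 13.2% of all genes. In Trpm5-positive cells, 18 members were lower and 3 higher than in Ccl21a-high cells, where 20.3% of genes were lower and 26.6% higher, and the median difference was -0.68 against 0.06 for all genes. The median mitochondrial share of UMIs was also higher in Trpm5-positive than in Ccl21a-high cells of each library, at 2.11 to 5.57% against 1.53 to 3.19%, and its part in these differences was not tested. For Trpm5-positive minus Aire-high cells, the median difference of the members was 0.24, against 0.15 for all genes. Here 13 members were higher and 6 lower in Trpm5-positive cells, a split near the 32.3% and 18.9% of all genes. That split depended on equal depth, and with UMIs per cell not scaled it was 8 higher and 9 lower, with 1300 of all genes higher and 3317 lower. Both comparisons with Ccl21a-high cells use the same Ccl21a-high profiles.

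**Figure D1:**
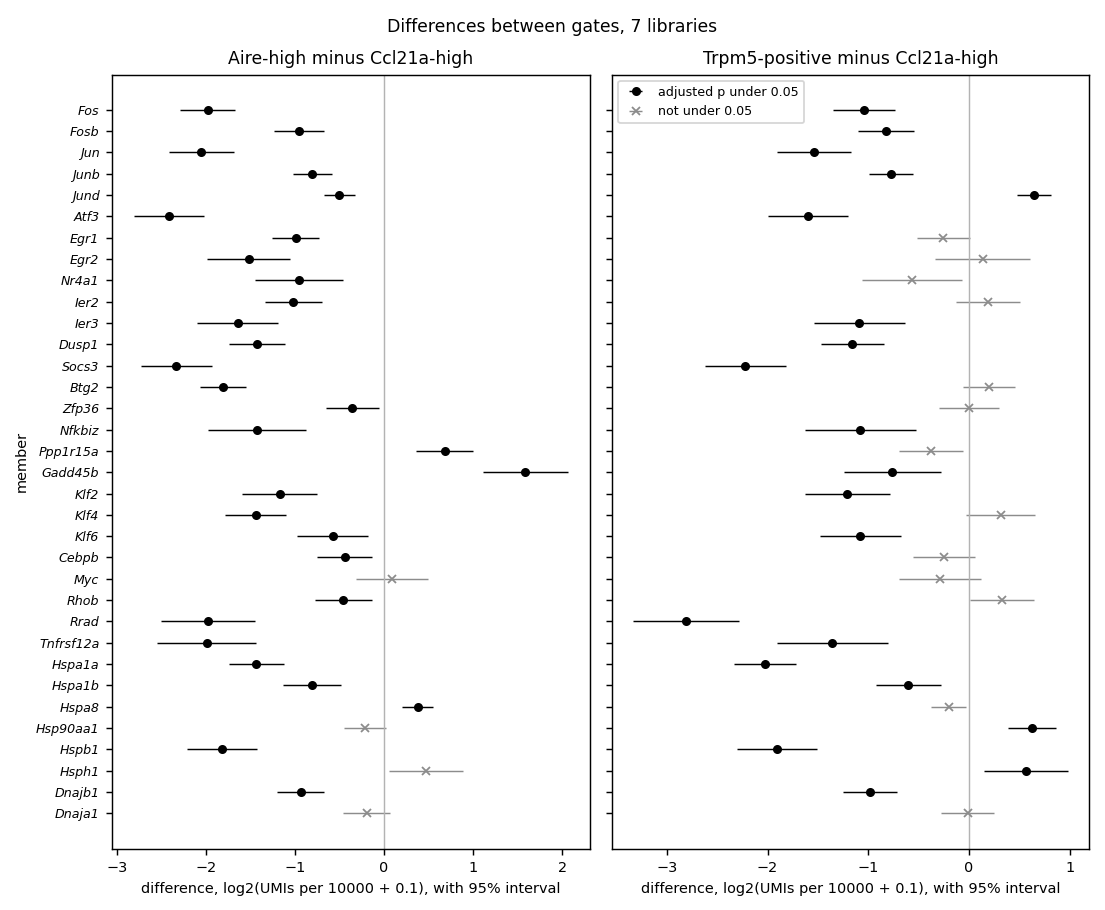
Difference of each of the 34 members tested between gates, in log2(UMIs per 10000 + 0.1), with bars for the 95% interval of the limma fit over 7 libraries; filled circles have an adjusted p under 0.05 and crosses do not. For Aire-high minus Ccl21a-high cells (left) 27 circles lie below 0 and those of Gadd45b, Ppp1r15a and Hspa8 above, and for Trpm5-positive minus Ccl21a-high cells (right) 18 lie below 0 and those of Jund, Hsp90aa1 and Hsph1 above.

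The median difference of the members between Aire-high and Ccl21a-high cells was nearer 0 when the mean was taken of UMIs per cell with no scaling to equal depth, an alternative chosen after the data were seen. Aire-high cells held more UMIs than Ccl21a-high cells in each library. In that reading 19 members were lower and 7 higher in Aire-high cells, with a median of -0.38, while 900 of the 8856 genes were lower and 4435 higher, with a median of 0.36. Jund, Cebpb and Zfp36, lower at equal depth, then stood at 0.11, 0.12 and 0.20 and were not called. Hsp90aa1 and Dnaja1, not called at equal depth, stood at 0.56 and 0.45 and were called higher (adjusted p = 0.00275 and 0.0172).

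Among the AP-1 subunits, all 6 were lower in Aire-high than in Ccl21a-high cells, where 26.8% of all genes were. In Trpm5-positive cells 5 were lower and 1 higher than in Ccl21a-high cells, against 20.3% and 26.6% of all genes. Fos, the partner of the Jun proteins that is itself a textbook immediate early gene, had 13.2 to 30.3 UMIs per 10000 in Ccl21a-high cells (median 20.0), 3.55 to 10.2 in Aire-high cells (median 4.97) and 6.44 to 13.4 in Trpm5-positive cells (median 10.3). The Ccl21a-high and Aire-high ranges did not meet, and the Trpm5-positive level stood above the Aire-high level in 7 of 7 libraries. The difference was -1.98 ± 0.15 (SE, adjusted p = 2.54e-09) between Aire-high and Ccl21a-high, -1.04 ± 0.15 (adjusted p = 9.24e-06) between Trpm5-positive and Ccl21a-high, and 0.94 ± 0.15 (adjusted p = 2.75e-05) between Trpm5-positive and Aire-high cells. When cells were brought to 2000 UMIs each, a Fos UMI was found in 61.5 to 85.2% of Ccl21a-high and 39.8 to 69.7% of Aire-high cells. In the 69 Ptprc and Cd3 cells, Fos stood at 1.82 to 12.5 per 10000, with 6 to 20 such cells per library and median depths of 5078 to 16587 UMIs. Those droplets held epithelial markers as well, and free RNA, an epithelial cell in the same droplet and transcription in the Cd3 cell cannot be told apart here.

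Jun, the other subunit of the classical dimer, was at 13.3 to 23.0 in Ccl21a-high, 2.74 to 6.57 in Aire-high and 2.69 to 9.34 in Trpm5-positive cells. Neither of the latter ranges reached the first, and the differences from Ccl21a-high were -2.05 ± 0.18 and -1.54 ± 0.18 (adjusted p = 1.35e-08 and 5.54e-07). Atf3, a stress-induced factor that dimerizes with Jun proteins, fell by 2.42 ± 0.19 on the log2 scale in Aire-high cells, from 3.12 to 8.05 down to 0.441 to 2.66 (adjusted p = 4.63e-09), and the ranges did not meet. Fosb and Junb differed less, by -0.96 ± 0.13 and -0.81 ± 0.10 in Aire-high cells and by -0.82 ± 0.13 and -0.78 ± 0.10 in Trpm5-positive cells. Between the latter gates they differed by 0.14 ± 0.13 and 0.03 ± 0.10, with adjusted p of 0.415 and 0.824.

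Jund, the AP-1 subunit that is expressed without a stimulus in most cells, ordered the gates otherwise. It was at 9.93 to 21.5 in Trpm5-positive cells (median 13.7), 5.89 to 16.0 in Ccl21a-high cells (median 8.89) and 4.81 to 10.9 in Aire-high cells (median 6.47). The ranges overlapped, yet in 7 of 7 libraries the order was Trpm5-positive, Ccl21a-high, Aire-high. It rose by 0.64 ± 0.08 in Trpm5-positive cells (adjusted p = 2.32e-06) and fell by 0.50 ± 0.08 in Aire-high cells (adjusted p = 4.32e-05), both against Ccl21a-high cells.

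**Figure D2:**
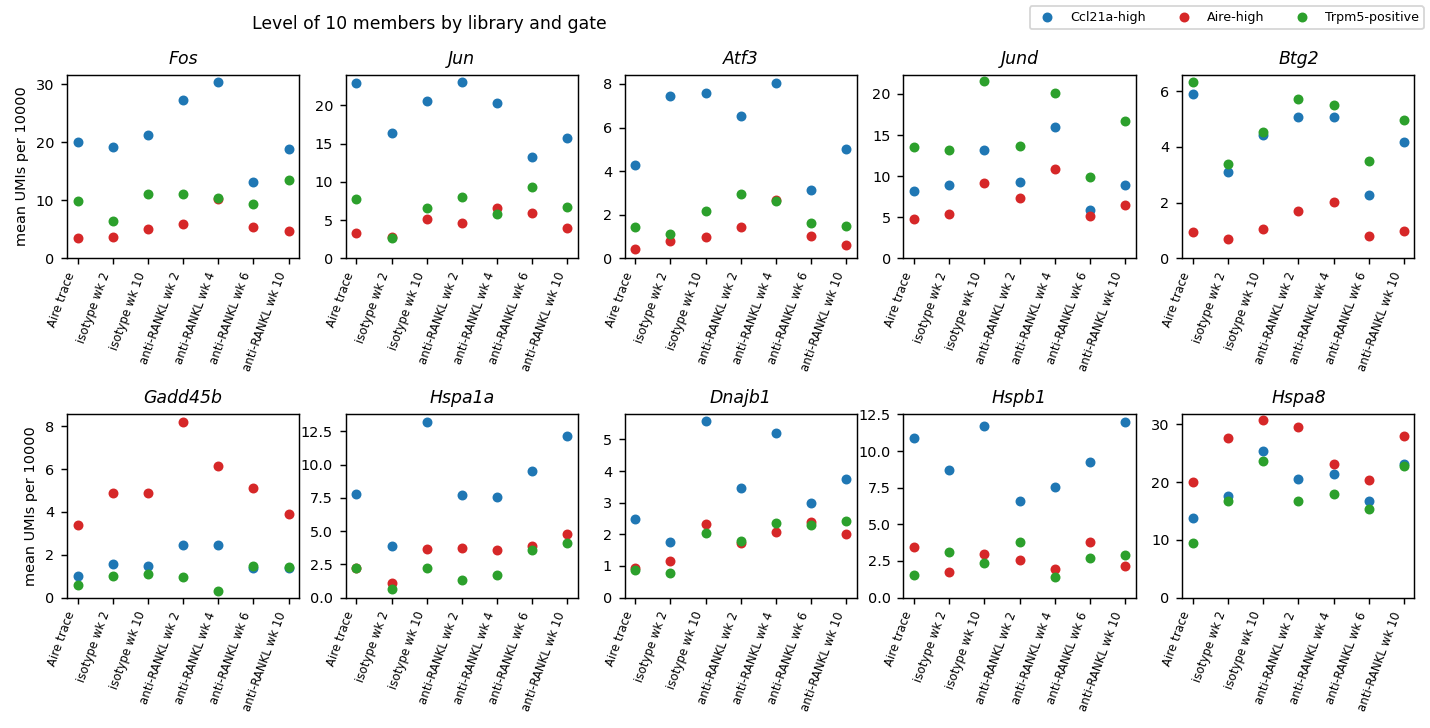
Mean UMIs per 10000 of 10 members in each of the 7 libraries, with 1 point per library and gate (blue Ccl21a-high, red Aire-high, green Trpm5-positive). Fos, Jun, Atf3 and Hspb1 are highest in Ccl21a-high cells of each library, Btg2 is low in Aire-high cells alone of the 3 gates, Gadd45b is highest there, and Hspa1a is lowest in the week 2 isotype control in each gate.

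The EGR and NR4A factors bind DNA as zinc finger proteins and orphan nuclear receptors and are induced by growth factor or receptor signals. Egr1 was at 4.62 to 8.08 in Ccl21a-high, 2.61 to 3.42 in Aire-high and 3.54 to 7.45 in Trpm5-positive cells. The Aire-high range lay below both others, with differences of -0.99 ± 0.13 from Ccl21a-high (adjusted p = 2.25e-06) and 0.74 ± 0.13 for Trpm5-positive minus Aire-high cells (adjusted p = 6.86e-05). Trpm5-positive and Ccl21a-high cells differed by -0.26 ± 0.13 (adjusted p = 0.103). Egr2, at 0 to 0.113 in Aire-high cells, was at 0.132 to 0.631 in Ccl21a-high and 0.128 to 0.818 in Trpm5-positive cells, and Trpm5-positive minus Ccl21a-high was 0.13 ± 0.22 (adjusted p = 0.654). Egr2 passed the filter only through the last 2 gates, so its place among the 27 members called lower and the 10 without overlap in Aire-high cells is no support for either count. Nr4a1 fell by 0.96 ± 0.24 in Aire-high cells (adjusted p = 0.00247), with overlapping ranges of 0.214 to 1.26 and 0.112 to 0.54.

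Of the 10 feedback and growth arrest genes, 9 were tested. In Aire-high cells 7 were lower and 2 higher, against 26.8% and 19.9% of all genes, the higher calls being near that share, and in Trpm5-positive cells 5 were lower, against 20.3%. Socs3, which blocks cytokine receptor signalling through JAK and STAT, was at 1.92 to 4.49 in Ccl21a-high cells, 0.355 to 1.38 in Aire-high and 0.315 to 1.15 in Trpm5-positive cells. Both lower ranges lay apart from the first, at -2.33 ± 0.19 and -2.22 ± 0.19 (adjusted p = 8.64e-09 and 1.3e-08), and differed from each other by 0.11 ± 0.19 (adjusted p = 0.648). Dusp1, a phosphatase that inactivates MAP kinases, fell by 1.43 ± 0.15 and 1.16 ± 0.15 (adjusted p = 1.96e-07 and 2.78e-06). Ier3, a regulator of survival, and Nfkbiz, a nuclear partner of NF-kB, fell by 1.65 ± 0.22 and 1.43 ± 0.26 in Aire-high cells and by 1.09 ± 0.22 and 1.08 ± 0.26 in Trpm5-positive cells.

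Btg2, an antiproliferative gene that is also a target of p53, was at 2.28 to 5.91 in Ccl21a-high cells (median 4.43), 3.40 to 6.32 in Trpm5-positive cells (median 4.99) and 0.696 to 2.03 in Aire-high cells (median 0.991). The Aire-high range lay below both others. Trpm5-positive minus Aire-high was 2.01 ± 0.12 (adjusted p = 1.13e-10), while Trpm5-positive minus Ccl21a-high was 0.20 ± 0.12 (adjusted p = 0.199). Ier2, an early nuclear protein, had a like order, at -1.02 ± 0.15 in Aire-high (adjusted p = 1.64e-05) and 0.19 ± 0.15 in Trpm5-positive cells (adjusted p = 0.334). Zfp36, the RNA-binding protein that shortens the life of cytokine mRNAs, differed by -0.36 ± 0.14 in Aire-high cells (adjusted p = 0.0453), a call that was lost without any 1 of 6 libraries, at adjusted p of 0.0549 to 0.131, and held without the week 6 anti-RANKL library.

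Gadd45b and Ppp1r15a went the other way. Gadd45b, a stress sensor that acts on MAP kinase kinases, was at 3.39 to 8.19 in Aire-high cells, above the 1.02 to 2.46 of Ccl21a-high cells and the 0.324 to 1.49 of Trpm5-positive cells. It rose by 1.59 ± 0.23 against Ccl21a-high (adjusted p = 1.06e-05) and Trpm5-positive cells stood at -2.35 ± 0.23 against Aire-high (adjusted p = 6.5e-08). Ppp1r15a, the subunit that directs dephosphorylation of eIF2alpha after stress, was at 1.51 to 3.46 in Aire-high against 0.888 to 1.76 in Ccl21a-high cells, higher in 7 of 7 libraries with overlapping ranges, by 0.68 ± 0.15 (adjusted p = 0.00113). Dusp2, a phosphatase of lymphocytes, did not pass the filter, at no more than 0.297 in any gate and library, and was at 0.421 to 1.51 in the Ptprc and Cd3 cells.

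Of the KLF, C/EBP and Myc factors, 4 of 5 were lower in Aire-high cells, against 26.8% of all genes. In Trpm5-positive cells 2 of 5 were lower, against 20.3%. Klf4, an epithelial differentiation factor, was at 0.384 to 0.99 in Aire-high cells, below the 1.73 to 3.85 of Trpm5-positive cells and overlapping the 0.886 to 2.88 of Ccl21a-high cells. It fell by 1.44 ± 0.16 against Ccl21a-high (adjusted p = 5.68e-07), and Trpm5-positive cells stood 1.76 ± 0.16 above Aire-high cells (adjusted p = 3.6e-08). Klf2, a factor of quiescence, fell by 1.17 ± 0.20 in Aire-high and 1.21 ± 0.20 in Trpm5-positive cells. Klf6 fell by 0.58 ± 0.19 and 1.08 ± 0.19 (adjusted p = 0.0189 and 0.000122) and Cebpb by 0.44 ± 0.15 in Aire-high cells (adjusted p = 0.0181). The first Klf6 call was lost without any 1 of the Aire trace, both isotype control and week 2 anti-RANKL libraries (adjusted p = 0.05 to 0.063), and the Cebpb call without the week 4 or week 10 anti-RANKL library (0.0604 and 0.0867). Myc, the proto-oncogene that drives growth, was at 0.163 to 0.752 over the gates and was called in no comparison, with differences from Ccl21a-high of 0.09 ± 0.19 and -0.29 ± 0.19 (adjusted p = 0.743 and 0.238).

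Rrad, a small GTPase related to Ras, was at 2.14 to 6.58 in Ccl21a-high, 0.56 to 1.28 in Aire-high and 0.106 to 1.23 in Trpm5-positive cells. It fell by 1.98 ± 0.25 and 2.81 ± 0.25 (adjusted p = 2.27e-06 and 2.06e-08), with no overlap with the first range. Tnfrsf12a, the receptor of the cytokine TWEAK, fell by 2.00 ± 0.27 and 1.36 ± 0.27 (adjusted p = 4.07e-06 and 0.000315), from 0.294 to 1.25 in Ccl21a-high cells. Rhob, an early GTPase of endosomes, differed by -0.46 ± 0.15 in Aire-high (adjusted p = 0.0191, and 0.0582 and 0.076 without the week 4 or week 10 anti-RANKL library) and by 0.33 ± 0.15 in Trpm5-positive cells (adjusted p = 0.0881).

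Of the 8 heat shock genes, 4 were lower and 1 higher in Aire-high cells, where 26.8% and 19.9% of all genes were, and 4 were lower and 2 higher in Trpm5-positive cells, where 20.3% and 26.6% were. The higher calls were near the share of all genes. Hspa1a, the inducible HSP70 whose promoter is shown above, was at 7.75 in the Aire trace library, 3.89 and 13.2 in the week 2 and week 10 isotype controls, and 7.73, 7.58, 9.53 and 12.2 in the week 2, 4, 6 and 10 anti-RANKL libraries, all in Ccl21a-high cells. In the same order, Aire-high cells had 2.24, 1.08, 3.63, 3.70, 3.55, 3.85 and 4.76, and Trpm5-positive cells 2.21, 0.663, 2.23, 1.31, 1.66, 3.56 and 4.07. Each gate had its lowest level in the week 2 isotype control, and within each of the 7 libraries Ccl21a-high cells were above Aire-high cells and those above Trpm5-positive cells. Hspa1a differed from Ccl21a-high by -1.44 ± 0.15 in Aire-high and by -2.03 ± 0.15 in Trpm5-positive cells (adjusted p = 1.5e-07 and 1.06e-09).

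Hspb1, the small chaperone HSP27 of epithelia, was at 6.59 to 12.0 in Ccl21a-high cells, 1.76 to 3.79 in Aire-high and 1.39 to 3.81 in Trpm5-positive cells, and neither lower range reached the first. The differences were -1.82 ± 0.19 and -1.90 ± 0.19 (adjusted p = 1.91e-07 and 9.33e-08). Dnajb1, the HSP40 partner of HSP70, fell by 0.93 ± 0.13 and 0.98 ± 0.13, and Hspa1b by 0.81 ± 0.16 and 0.60 ± 0.16, in 7 of 7 libraries each. Hspa8, the constitutive HSC70, went the other way in Aire-high cells, at 20.1 to 30.7 against 13.8 to 25.4 in Ccl21a-high cells, higher in 7 of 7 libraries by 0.38 ± 0.08 (adjusted p = 0.00104). Hsp90aa1, the inducible form of HSP90, was highest in Trpm5-positive cells at 8.20 to 12.4, against 4.96 to 9.25 and 3.47 to 6.31 in Ccl21a-high and Aire-high cells, and rose by 0.63 ± 0.11 against the former (adjusted p = 0.000145). Hsph1, an HSP110, was higher in Trpm5-positive cells by 0.57 ± 0.20 (adjusted p = 0.0243, and 0.103 and 0.0513 without the week 2 isotype control or the week 2 anti-RANKL library). Dnaja1 was called in no comparison between gates, with differences from Ccl21a-high of -0.20 ± 0.13 and -0.01 ± 0.13 (adjusted p = 0.213 and 0.94).

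Summed over the 6 AP-1 genes, the level per 10000 was 49.4 to 102 in Ccl21a-high, 20.9 to 45.2 in Aire-high and 31.3 to 52.4 in Trpm5-positive cells. Within each library Ccl21a-high cells were highest and Aire-high cells lowest, the first being 1.79 to 3.68 times the last. Over the 8 heat shock genes the sum was 41.4 to 71.5, 37.2 to 49.8 and 27.8 to 48.7, with Ccl21a-high at 1.01 to 1.43 times Aire-high cells. Cells that passed no threshold had AP-1 sums of 32.9 to 61.4 and heat shock sums of 33.0 to 50.3. The Ptprc and Cd3 cells, which also carried epithelial markers, had 21.1 to 52.4 and 27.4 to 52.7, from 6 to 20 cells per library.

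**Figure D3:**
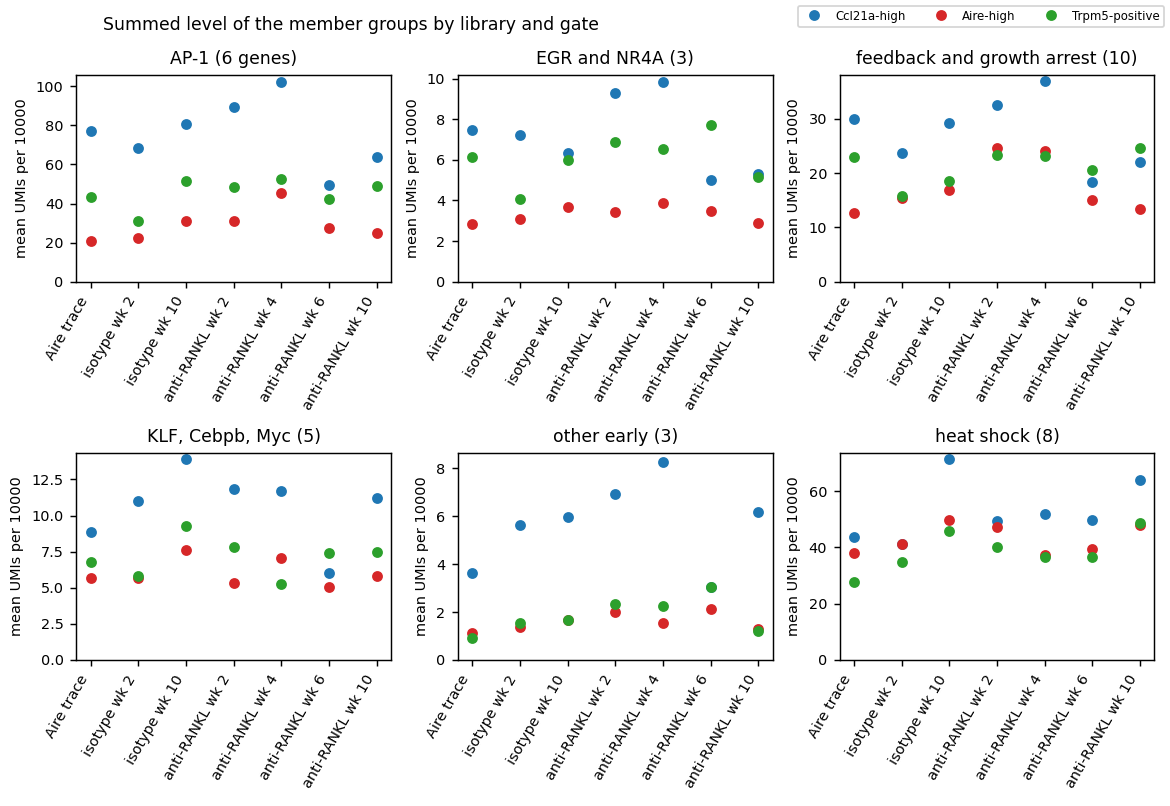
Summed mean UMIs per 10000 of each group of members, 1 point per library and gate (blue Ccl21a-high, red Aire-high, green Trpm5-positive). AP-1 sums reach 102 in Ccl21a-high cells of the week 4 anti-RANKL library and are lowest in Aire-high cells of every library, whereas the heat shock sums lie between 27.8 and 71.5 and the week 10 libraries are the highest of each gate.

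Libraries were compared with each gate taken into account. With the gate as a term, 8 of 34 members differed between the 7 libraries (moderated F test in limma, adjusted p under 0.05), where 5.8% of all genes did. Each library is a single pool and its 3 gates stood in as replicates, so these calls compare 7 pools against the spread of gates within them and have no replication between pools. They were Hspa1a, Hspa1b, Hspa8 and Dnajb1 of the 8 heat shock genes, and Jund, Atf3, Nr4a1 and Btg2 of the 26 early genes tested. Dnajb1 (adjusted p = 0.000153), Hspa8 (0.000913) and Jund (1.36e-05) were called in each of 21 settings of the processing. Hspa1a (8.1e-05) and Hspa1b (0.000993) were called in 20 of 21, and lost the call without the week 2 isotype control, at adjusted p of 0.1 and 0.253. Atf3 (0.0305) and Nr4a1 (0.0256) lost it without the week 4 anti-RANKL library, at 0.12 and 0.232, and Atf3 also without the Aire trace, week 2 or week 10 anti-RANKL library. Both also lost it with UMIs thinned to 2000 (0.102 and 0.237), cells of at least 4000 UMIs (0.0508 and 0.472), stricter gates (0.0659 and 0.194) or profiles of at least 50 cells (0.221 and 0.212), and Nr4a1 with summed UMIs (0.0831) or a pseudocount of 0.02 (0.0501). Btg2 (0.00496) lost it with UMIs thinned to 2000 (0.148). Weighted by cell number, an alternative chosen after the data were seen, all 34 members and 3815 genes were called.

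Dnajb1 in Ccl21a-high cells was at 1.75 in the week 2 isotype control and 5.57 in the week 10 one, and at 5.19 in the week 4 anti-RANKL library. Hspa8 was lowest in the Aire trace library in each gate, at 13.8, 20.1 and 9.39, and highest in the week 10 isotype control, at 25.4, 30.7 and 23.7, in Ccl21a-high, Aire-high and Trpm5-positive cells. In Ccl21a-high cells, 13 of 26 early genes were highest in the week 4 and 17 lowest in the week 6 anti-RANKL library, while 5 of 8 heat shock genes were highest in the week 10 isotype control. The other gates had other extremes. In Aire-high cells the week 4 library, with 20 cells, was highest for 15 early genes, the week 6 library was lowest for 3 and the Aire trace library for 9, and in Trpm5-positive cells week 4 was highest for 5, week 6 lowest for 5 and the week 2 isotype control lowest for 10. The week 10 isotype control was highest for 1 heat shock gene in Aire-high and 3 in Trpm5-positive cells. Those week 4 and week 6 libraries were the shallowest, with median depths of 5129 and 4574.5 UMIs in Ccl21a-high cells, and the week 6 library had the lowest mitochondrial share there, 1.53% against up to 3.19%. Extremes were counted for the members only, so whether all genes share them is not known. The part of depth and RNA quality in these extremes was not tested.

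The spread of each gene over the 21 library and gate profiles was divided into shares. Gates have 2 and libraries 6 of the 20 degrees of freedom. The median share between gates was 65.9% over the 26 early genes, 39.4% over the 8 heat shock genes and 44.1% over all genes, and that between libraries was 20.3%, 42.3% and 21.1%. Libraries took a larger share than gates for 4 of 26 early genes (Nr4a1, Cebpb, Myc and Rhob), for 5 of 8 heat shock genes (Hspa1b, Hspa8, Hsph1, Dnajb1 and Dnaja1) and for 34.0% of all genes. Socs3, Hspb1, Btg2 and Fos stood at 83.8, 83.7, 82.8 and 81.9% between gates, and Dnaja1 at 6.74% between gates and 62.3% between libraries. A list of 29 other chaperone and co-chaperone genes tested had medians of 35.9% between gates and 38.5% between libraries.

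**Figure D4:**
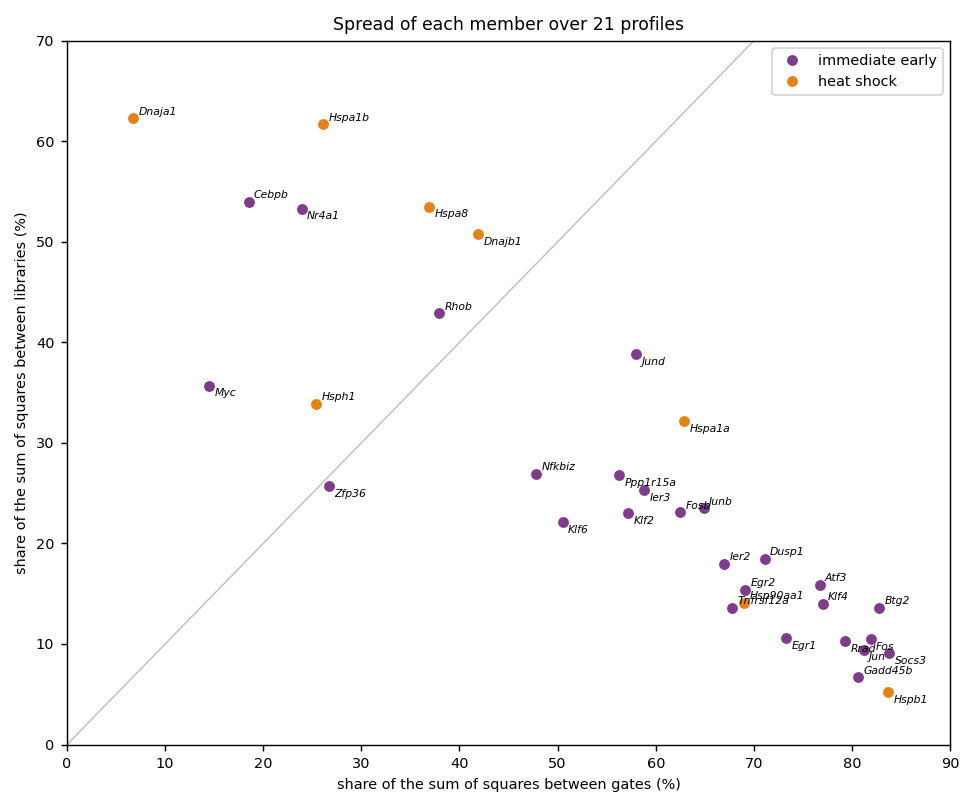
Share of each member's sum of squares over 21 profiles that lies between the 3 gates (x axis, %) and between the 7 libraries (y axis, %), with a line of equal shares; purple points are early genes and orange points heat shock genes. 5 of 8 heat shock genes and 4 of 26 early genes lie above the line.

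Cells of 1 gate and library differed widely. The AP-1 sum of the cell at the 10th percentile was 4.63 to 17.2 per 10000 in Ccl21a-high cells over the libraries, 6.67 to 20.99 in Aire-high and 8.49 to 21.7 in Trpm5-positive cells, so the low ends overlapped. At the median the ranges were 31.6 to 79.1, 17.9 to 37.0 and 28.1 to 50.9. At the 90th percentile they were 116 to 221, 39.2 to 77.3 and 58.1 to 100, and the Ccl21a-high range lay above both others. For the heat shock sum the 90th percentile was 62.9 to 139, 57.5 to 81.1 and 44.1 to 85.9, which overlapped. In Ccl21a-high cells the highest heat shock values at that percentile were those of the week 10 isotype control and the week 10 anti-RANKL libraries, 139 and 123.

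**Figure D5:**
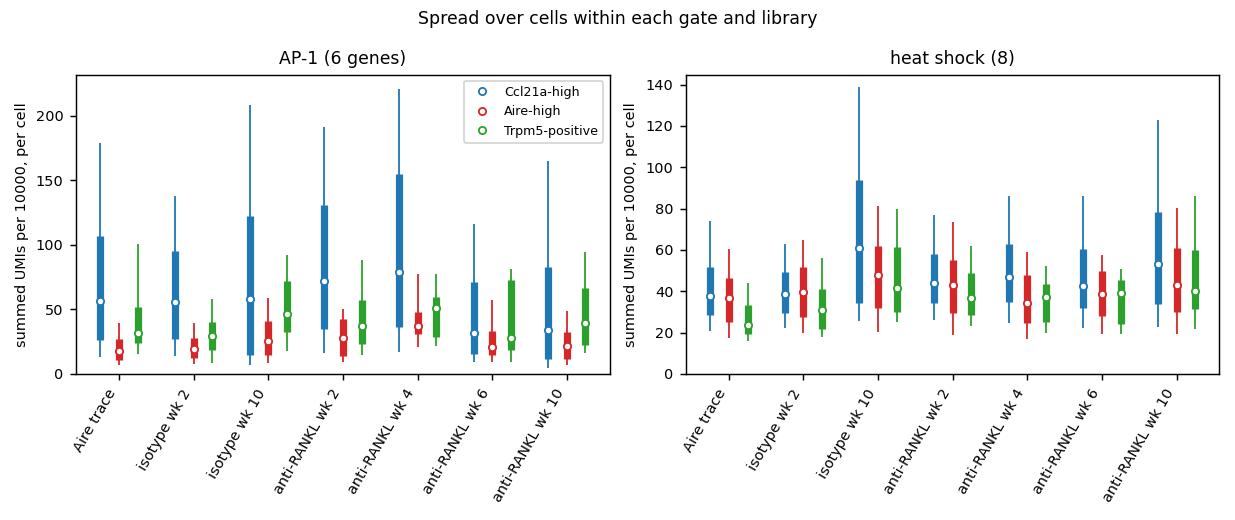
Summed UMIs per 10000 per cell for the AP-1 genes (left) and heat shock genes (right) in each library and gate; circles are medians over cells, thick bars span the 25th to 75th and thin bars the 10th to 90th percentile. The thin bars of Ccl21a-high cells reach 116 to 221 for AP-1, above those of the other gates, while their lower ends overlap.

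Treatment was compared over the 2 isotype control and 4 anti-RANKL libraries within a gate, since the number of cells per gate differed between libraries. No member was called in Ccl21a-high cells (0% of 8099 genes, limma), in Aire-high cells (0% of 8287) or for the difference of the treatment effect between these gates (0% of 8431). At an unadjusted p under 0.05 there were 2 members and 609 genes, 0 and 133, and 3 and 214. Without the week 10 anti-RANKL library, 34 genes but no member were called in Ccl21a-high cells, 7 higher and 27 lower, and 2 genes with summed UMIs. Fos differed by 0.07 in Ccl21a-high cells, with a 95% interval from -0.61 to 0.76, and by 0.55 in Aire-high cells, with an interval from -0.17 to 1.27, in anti-RANKL minus isotype. Hspa1a differed by 0.33 (-0.59 to 1.26) and 0.94 (-0.0015 to 1.89), where the week 2 isotype control was the lowest library. Differences within these intervals are not excluded by these libraries, and the smallest detectable difference was not computed. Tnfrsf12a had the lowest unadjusted p in Ccl21a-high cells, with a difference of -1.05 ± 0.27 and an adjusted p of 0.606.

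Other genes of the same pathways, from lists that hold no member, varied in direction. Of 36 further immediate early genes, 30 were tested, and in Aire-high cells 15 were lower and 6 higher than in Ccl21a-high cells, with a median of -0.44, where 26.8% of all genes were lower and 19.9% higher, with a median of -0.11. Cyr61, a matrix protein induced by serum and by YAP, differed by -3.63 ± 0.22 in Aire-high and -3.52 ± 0.22 in Trpm5-positive cells, and Id1, an inhibitor of basic helix-loop-helix factors, by -3.54 ± 0.31 and -2.82 ± 0.31. Nfkbia, the NF-kB inhibitor, and Cxcl2, a neutrophil chemokine, were higher in Aire-high cells by 1.42 ± 0.13 and 3.63 ± 0.24. Plk2, a polo-like kinase, was higher in Trpm5-positive cells by 4.08 ± 0.17. Of the 29 chaperone genes tested, 6 were higher and 9 lower in Aire-high cells, with a median of -0.08, which is near the shares and the median of all genes. In the kinase cascade upstream, 7 of 15 genes tested, Egfr and Fgfr2 among them, were lower in Aire-high cells and none was higher. Of 14 tested genes of the unfolded protein response of the endoplasmic reticulum, 6 were higher and 1 lower. Of the 5 housekeeping genes used in the study, Gapdh alone was called in Aire-high cells, higher by 0.42 ± 0.08.

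The genes with a profile most like that of Fos over the 21 profiles were, among members, Atf3, Jun, Socs3 and Fosb, with Pearson r of 0.947, 0.926, 0.897 and 0.894, and, among all other genes tested, Ptov1, Sox4, Map1lc3a, Ddah2 and Zak, with r of 0.911 to 0.928. For Hspa1a they were Dnajb1, Klf2, Jun and Hspa1b, with r of 0.822, 0.814, 0.777 and 0.768, and Lamp2, Synm, Tns3, Shisa4 and Rhbdl3, with r of 0.827 to 0.851. These r values are descriptions over profiles that share libraries and gates. Gadd45b and Hsph1 had r of -0.442 and -0.5 with Fos.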

How the data were processed

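Droplet single-cell RNA-seq was measured in 7 libraries of sorted thymic epithelial cells. Per the submitters' processing notes, the authors aligned reads to mm10 with Cell Ranger 2.2.0 and filtered and normalised cells in Seurat 2.3.4. The authors scaled each cell to a fixed total and deposited natural log values, ln(x + 1), where x is UMIs per 10000 (each cell sums to 10000, although the methods state a lower factor). Combined tables of several libraries were left aside. Whole UMIs were recovered in each of the 8453 cells. Doublets were not called, and cells passing several gates were left out of the gates.

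Members and lists were chosen with earlier results of these data known. For each library and gate with at least 20 cells, the mean level over cells with no Ptprc UMI and at least 2000 UMIs was taken, and log2(level + 0.1) was fitted in limma 3.58.1 (R 4.3.3, trend) over all genes with a mean level of at least 0.1, with gate and library as terms. Adjusted p-values are limma's with the Benjamini-Hochberg method over all genes tested. A call means an adjusted p under 0.05. Cells were not treated as replicates, and each library is 1 pool of 3 thymi. With library as a term, p-values between gates measure how far the gate differences vary from pool to pool. P-values between treatments within a gate measure the spread between pools, and all pools share the digestion protocol. P-values between libraries rest on the gates of each pool. The spread shares were computed in Python 3.11.15 with pandas 2.3.3. Tested on simulated data for Aire-high against Ccl21a-high cells (8936 genes), the fit called 94% of genes raised 2-fold, 82% of genes at 0.5-fold, 18% at 1.5-fold and 1 of 8736 unchanged genes. The changed genes had a mean level of at least 0.5, which 30 of the 34 members reach. Every simulated gene had the median spread and no library effect, so these rates do not cover low or more variable members.

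Depth limits the low members, and cell numbers limit the Aire-high profile of the week 4 anti-RANKL library. Any member could be named, as could genes of the lists and the 5 others most like Fos or Hspa1a. Other pseudocounts, filters, gates, depths and averages were tried, each library was left out in turn, and 3 settings were added after the data were seen.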

Additional observations from a re-analysis of the deposited data

Results flagged for a closer look

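In 120 sets of the 4 anti-RANKL libraries, 1 gene or group sum in 1 gate each, 4 had a library whose gap to the nearest other exceeded Dixon's 95% critical value, as a share of the range, where 6 would be reached at 1 in 20. In Ccl21a-high cells of the week 6 library, Hspa1b was at 1.887 UMIs per 10000, above the 1.241 to 1.295 of the other 3, and the summed KLF, C/EBP and Myc genes were at 6.016, below 11.24 to 11.82. In the week 4 library, Nfkbiz was at 0.7541 in Aire-high cells, above 0.1724 to 0.2562, from 20 cells, and the KLF, C/EBP and Myc sum was at 5.254 in Trpm5-positive cells, below 7.393 to 7.818.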

How the results depend on the processing

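The count of members called between libraries was 8, and it was 22 when cells passing several gates were counted in each, 14 with the mean of log values and 34 with profiles weighted by cells, a setting added after the data were seen. All genes called rose with them, from 514 of 8856 to 1220 of 8792, 1009 of 8856 and 3815 of 8856. The cause was not tested. Leaving out 1 library at a time gave 6 to 11 members between libraries, 27 to 30 for Aire-high minus Ccl21a-high, 20 to 24 for Trpm5-positive minus Ccl21a-high, 15 to 20 for Trpm5-positive minus Aire-high, and 0 for treatment. The totals called between gates stayed within 1.5 times, but not each split: for Trpm5-positive minus Aire-high, 13 higher and 6 lower became 17 and 3 with cells of several gates counted in each and 8 and 9 without scaling, the 3 higher for Aire-high minus Ccl21a-high became 7 without scaling, and the 3 higher for Trpm5-positive minus Ccl21a-high became 5 with the mean of log values. Without scaling to equal depth, Aire-high minus Ccl21a-high turned to 0.12 for Cebpb, 0.45 for Dnaja1, 0.56 for Hsp90aa1, 0.11 for Jund and 0.20 for Zfp36, while the median of all genes moved from -0.11 to 0.36, and Trpm5-positive minus Aire-high turned to -0.45 for Junb and -0.053 for Zfp36. With cells of several gates counted in each, Rrad turned to 0.018 in the last comparison. For Trpm5-positive minus Aire-high, calls of Ier3, Jun, Klf6 and Zfp36 were lost without 1 library. With weeks 2 and 10 alone and the week as a replicate block, run for Ccl21a-high cells only, limma called 0 members for treatment (2 at an unadjusted p under 0.05), with 1 residual degree of freedom, so this count says nothing about stability. Libraries differ in pool, age and treatment together, Aire-high cells of week 4 number 20, and 1.5-fold changes were seldom called on simulated data.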
